A study of Mus musculus with 2 samples.

Results

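The genes examined here were the 5 subunits of the transcription factor NF-kB (Nfkb1, Nfkb2, Rel, Rela and Relb), 4 inhibitors of the IkB family (Nfkbia, Nfkbid, Nfkbie and Nfkbiz) and the feedback inhibitor Tnfaip3. Their chromatin was described in regulatory T cells of the mouse by ATAC-seq, which finds open DNA by the insertion of the transposase Tn5. A peak belonged to a gene when its summit lay in the GENCODE M21 gene body or within 20 kb on either side, which gave 60 of the 34610 peaks of the authors' IDR-thresholded list (IDR, the irreproducible discovery rate, measures how well peak ranks agree between calls). The 10 genes are 10 of 21911 protein-coding genes, and their loci add up to 643 kb.

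The cells were primary regulatory T cells of 1 adult male mouse aged 4 months, of the strain Foxp3CreERT2 x Rosa26YFP, and the labels trace them to bone marrow hematopoietic cells. CreERT2 is a tamoxifen-inducible recombinase, placed here at Foxp3, and YFP is a fluorescent reporter at Rosa26. The labels mention no tamoxifen treatment. Both libraries were made as technical repeats from that 1 biological replicate. They were pooled before peak calling, so a value below is single, without any spread between animals, and the series has no second cell type or treatment. Sequencing depth is unknown.

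NF-kB dimers are held in the cytoplasm by IkB proteins in resting cells. Signals from the T cell receptor, costimulation or TNF family receptors lead to phosphorylation and breakdown of IkB, and the freed dimers bind kappaB sites in the nucleus. In the alternative branch the p100 precursor made from Nfkb2 is processed to p52, which works with RelB. Several genes of the system, the IkB alpha gene Nfkbia and the A20 gene Tnfaip3 among them, are textbook targets of NF-kB, so that the factor switches on its own restraint. In regulatory T cells the family is known for its part in Foxp3 induction and in the effector state.

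kappaB matches are shown first because the results turn on them. The consensus searched, on both strands, was 3 G, a purine, 2 free bases, 2 pyrimidines and 2 C, and overlapping matches were joined to 1 run. Every member had at least 1 run inside a thresholded peak whose summit lay within 1 kb of the 5′ end of the gene. This came from a search of whole peak intervals that was added after seeing the data. Of all protein-coding genes with such a 5′ peak 32.7% had a run in it, and 39.7% of those with at least 1000 bp of 5′ peak. In the planned windows of 200 bp centred on the summit, 5 of the 10 members had a match at their own 5′ end. The run closest to the 5′ end is printed for each member, and for Nfkb2 all 6 runs of its peak, since that number stood out. The sequences are mm10 (GRCm38), read 5′ to 3′ on the strand named, with the kappaB run in capitals and up to 10 flanking bases in lower case.
Nfkb1, chr3:135691497-135691526, minus strand: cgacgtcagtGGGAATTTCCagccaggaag
Nfkb2, chr19:46304689-46304717, plus strand: gatcgtcacGGGAATTCCCCccctcgggg
Nfkb2, chr19:46304716-46304745, plus strand: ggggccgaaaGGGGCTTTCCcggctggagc
Nfkb2, chr19:46305239-46305268, plus strand: cagggagggcGGGATGCTCCcgtttgaccg
Nfkb2, chr19:46305326-46305355, plus strand: accgtggaggGGGAAACTCCtcccccccac
Nfkb2, chr19:46305449-46305478, minus strand: ggcttttgtgGGGACATTCCtgccgtcgga
Nfkb2, chr19:46305695-46305724, plus strand: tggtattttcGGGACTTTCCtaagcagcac
Rel, chr11:23771042-23771070, minus strand: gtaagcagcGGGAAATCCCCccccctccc
Rela, chr19:5637888-5637917, minus strand: gcggggagggGGGAGATTCCgccgcaggcc
Relb, chr7:19629443-19629472, minus strand: cggcggcgccGGGGAATTCCgccgccccgc
Nfkbia, chr12:55492657-55492686, plus strand: gtcaggcgcgGGGAATTTCCaagccagtca
Nfkbid, chr7:30422170-30422199, plus strand: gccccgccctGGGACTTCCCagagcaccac
Nfkbie, chr17:45555584-45555613, plus strand: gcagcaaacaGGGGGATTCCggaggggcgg
Nfkbiz, chr16:55838850-55838879, minus strand: tttttggcctGGGAATTTCCagcgtgtgga
Tnfaip3, chr10:19015516-19015545, minus strand: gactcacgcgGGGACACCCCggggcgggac
The centres of these runs lay 36 bp downstream of the 5′ end at Nfkb1, 86 bp upstream at Rel, 20 bp upstream at Relb, 24 bp upstream at Nfkbia, 104 bp upstream at Nfkbie and 34 bp downstream at Nfkbiz. At Tnfaip3 the run lay 126 bp downstream, at Rela 420 bp and at Nfkbid 452 bp downstream. These distances are from the outermost annotated 5′ end. The printed runs of Tnfaip3 and Nfkbid, and the first and second printed at Nfkb2, lay upstream of the start of the principal transcript. The same 10 bases, GGGAATTTCC, stood at Nfkb1, Nfkbia and Nfkbiz. They occur in 104 of the 34610 peak intervals (0.300%), of which 7185 held any kappaB run.

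Open chromatin at the 5′ end was common to all members. A summit lay within 1 kb of the annotated 5′ end in 10 of 10 genes, against 47.4% of all protein-coding genes. When only peaks at or over the median signal of the list were counted, 2 of 10 members had one (Rela and Relb), against 34.8% of genes. Nfkb1 and Nfkbid had 2 such peaks each and the other 8 members 1 each, 12 in all. By signal, the authors' enrichment value per peak, the highest 5′ peak of each gene ran from Relb (15.7), Rela (15.3), Nfkb1 (13.0) and Nfkb2 (11.3) through Nfkbid (9.75), Tnfaip3 (9.63), Nfkbiz (8.60) and Nfkbie (7.59) to Rel (7.37) and Nfkbia (7.22). The subunit genes other than Rel thus stood above all inhibitor genes, but with 1 pooled sample no neighbours in this order can be called different. By the deposited −log10 p the order changed. Relb stayed first (648), followed by Nfkb1 (378), Tnfaip3 (371), Nfkbia (349) and Nfkbid (308), and then Nfkb2 (255), Rela (231), Rel (211), Nfkbie (195) and Nfkbiz (193).

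**Figure D1:**
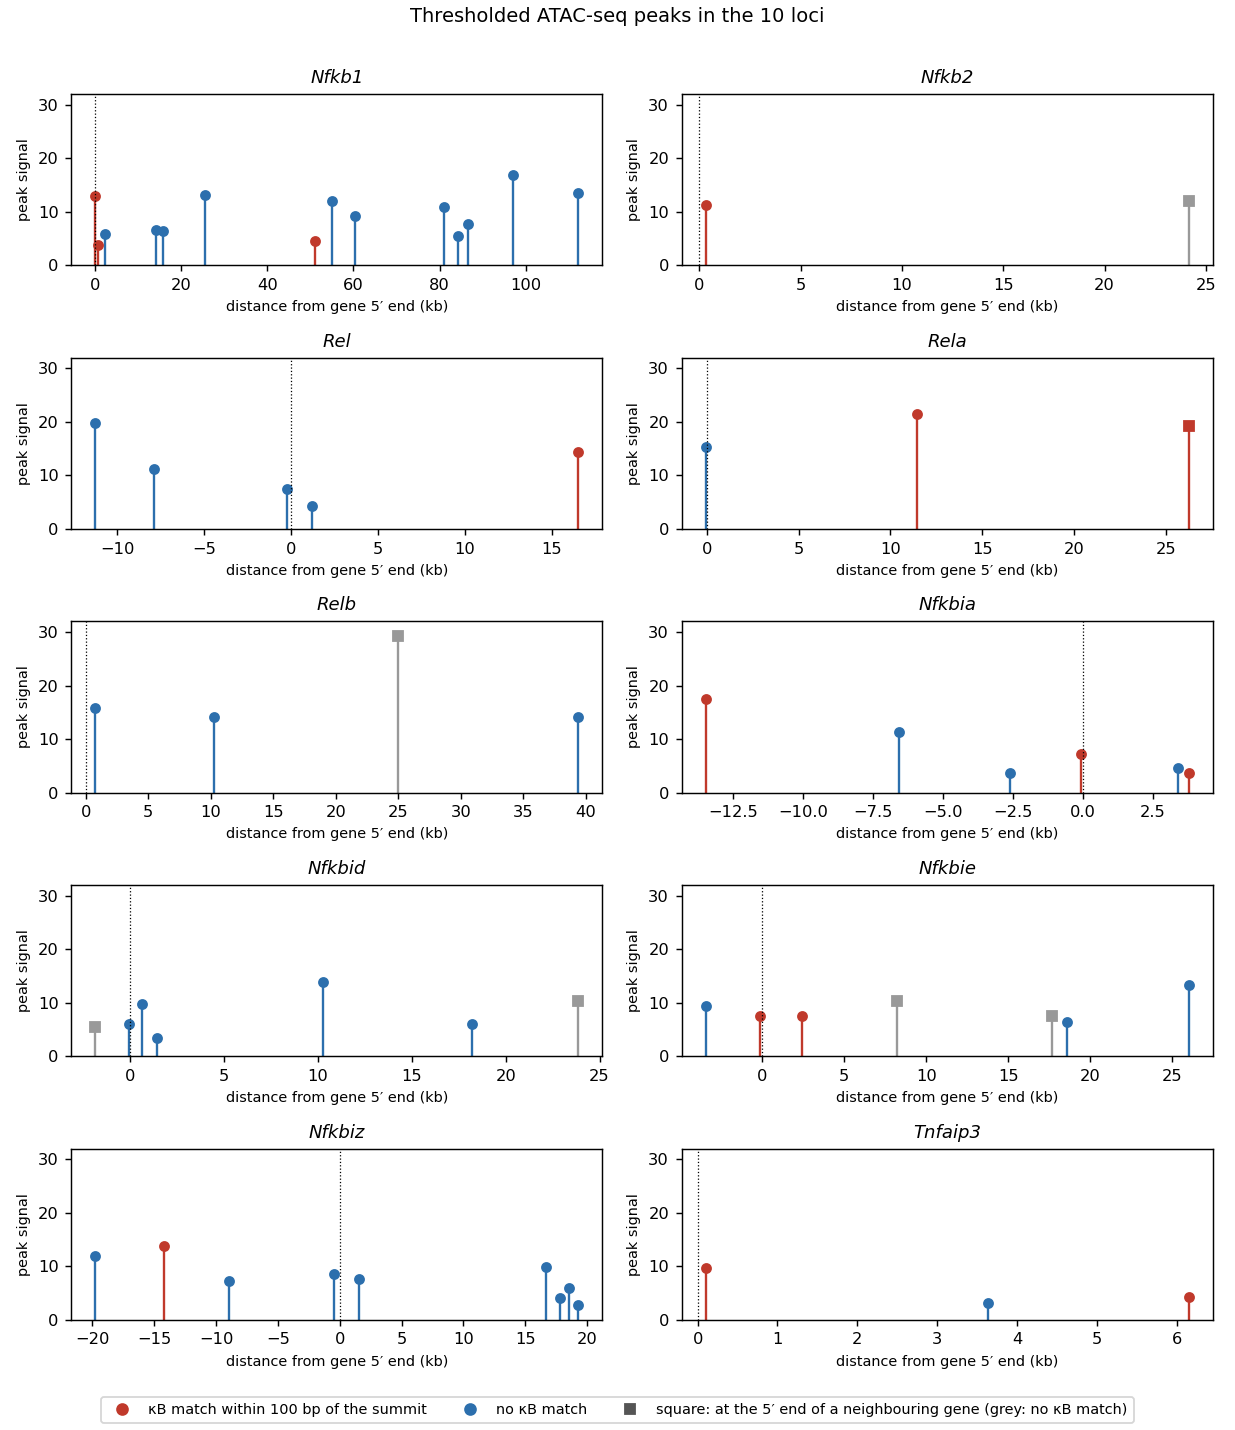
Signal of each of the 60 peaks (vertical axis, the authors' enrichment value) against the distance of its summit from the 5′ end of the gene in kb, negative upstream, with 1 panel per gene and its own horizontal scale. Red marks a kappaB match within 100 bp of the summit, and squares mark summits at the 5′ end of a neighbouring gene. Nfkb1 carries 14 peaks in its locus, while Nfkb2 has 2.

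Peaks were also numerous around these genes. All 10 loci held at least 1 peak, which follows from their 5′ peaks and is no separate result, while 69.8% of protein-coding genes had one. The 10 loci held a median of 5.5 peaks (range 2 to 14), against 2 over all protein-coding genes (quartiles 0 and 4). With the same signal threshold both medians were 1. Per 100 kb of locus the members ranged from 4.16 (Nfkb2) to 14.9 (Nfkbid), with a median of 8.14, and the median over all genes was 2.34. Of the 60 peaks, 12 lay at the 5′ end of a member, 7 at that of a neighbouring protein-coding gene and 41 (68.3%, exact Clopper-Pearson 95% interval 55.0 to 79.7%) farther than 1 kb from any such end. This share was close to the 71.9% of the whole list. Of the 41, 23 lay inside the member gene, 9 upstream and 9 downstream. The interval covers counting error only, and peaks are not replicates.

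**Figure D2:**
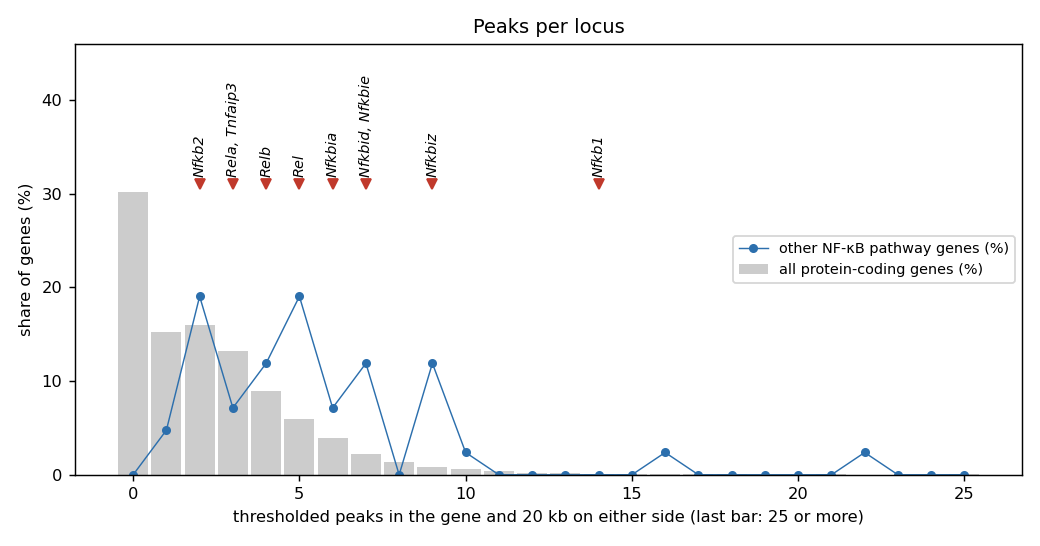
Share of genes (vertical axis, percent) by their number of thresholded peaks (gene body with 20 kb flanks), for all 21911 protein-coding genes (grey bars) and for 42 other genes of the NF-kB pathway (blue points). Red triangles place the 10 members, from Nfkb2 with 2 peaks to Nfkb1 with 14, and they carry no value on the vertical axis.

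Nfkb1, which encodes the p105 precursor of p50, had the most peaks of the family in the thresholded list. Its gene spans 107 kb of chromosome 3 (135584655 to 135691547, minus strand), and its 14 peaks were as many as or more than those of 99.5% of protein-coding genes. Per 100 kb of locus it had 9.53 peaks, at or above 92.7% of genes and below Nfkbid, Nfkbie, Nfkbia and Nfkbiz. Signal was 13.0 at the peak over exon 1 (135691265 to 135691993) and 3.72 at a weaker one in intron 1 (135690832 to 135691141). Both had a kappaB match within 100 bp of the summit. Another 11 peaks lay in introns, with signals from 4.55 to 16.9. The highest, in intron 18 of the principal transcript (135594157 to 135594940), lay within 1 kb of an internal annotated transcript start, 97.1 kb from the 5′ end. In intron 3 a peak at 135665491 to 135666339 had a signal of 13.1 and a −log10 p of 360, close to the 378 of the exon 1 peak. In intron 6 the weakest of 3 peaks (135640232 to 135640594, signal 4.55) carried the match GGGGTTTTCC. The remaining peak, with a signal of 13.5, lay beyond the 3′ end of the gene. Among peaks at or over the list's median signal Nfkb1 had 2, behind Relb with 4 and Rela with 3, and at or over its median −log10 p it had 5, behind Nfkbie with 7.

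Nfkb2 (chromosome 19, 46304320 to 46312385, plus strand) had the fewest peaks of the family in this list, 2, but in the pseudoreplicated list it had 6 and Relb 4. One of the 2 peaks (46327932 to 46329234, signal 12.1) had its summit 294 bp from the 5′ end of the neighbouring ubiquitin ligase gene Fbxl15. The other, at 46304172 to 46305868, was 1697 bp wide with 5 listed summits and a signal of 11.3. Its strongest summit lay 314 bp downstream of the outermost 5′ end and 166 bp upstream of the start of the principal transcript. This interval held the 6 kappaB runs printed above, centred from 383 to 1390 bp downstream of the 5′ end. In the whole list, 4 of 34610 peaks held 6 or more runs, 3 of them among the 7114 peaks at least 1000 bp wide.

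Rel, the c-Rel gene, which lymphoid cells express at high levels, had its peaks of highest signal away from its 5′ end. On chromosome 11 (23736847 to 23770970, minus strand) the 5′ peak at 23770540 to 23772015 had 4 summits and a signal of 7.37. Peaks 7.88 and 11.2 kb upstream had signals of 11.2 and 19.8, and a peak in intron 3 (23754000 to 23754700), 16.5 kb downstream of the 5′ end, had 14.5. A further peak in intron 1, 1.20 kb downstream, had 4.22. By −log10 p the 5′ peak (211) was second to the peak 11.2 kb upstream (266) and above the other 3, which had 121 in intron 3, 119 at 7.88 kb upstream and 73.6 in intron 1. The 200 bp at the summit in intron 3 are shown because the run of 12 bases fits the consensus in 3 overlapping frames, 41.5 bp from the summit.
Rel intron 3, chr11:23754364-23754563, minus strand: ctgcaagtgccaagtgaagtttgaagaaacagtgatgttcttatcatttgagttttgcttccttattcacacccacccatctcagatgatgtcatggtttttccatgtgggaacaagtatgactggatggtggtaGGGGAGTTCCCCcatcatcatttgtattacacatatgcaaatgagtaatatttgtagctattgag
Capitals mark the kappaB run.

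Rela, which encodes p65, the main activating subunit of the classical pathway, had the strongest summit of each of its peaks outside its gene body (chromosome 19, 5637483 to 5648130, plus strand), although the 5′ peak reaches into it. All 3 of its peaks reached the median signal of the list. The summit of the 5′ peak (5636781 to 5638101, signal 15.3) lay 54 bp upstream of the gene. A peak beyond its 3′ end (5648572 to 5649433, 11.4 kb from the 5′ end) had a signal of 21.5, the highest of the 60 peaks other than that at the splicing factor gene Clasrp. The 3rd peak (5663365 to 5664164, signal 19.1) had its summit 28 bp from the 5′ end of Sipa1, a regulator of Rap GTPases, and carried the match GGGGACCTCC 42.5 bp from that summit. The downstream peak is shown because its match, GGGAAACCCC, lay 35.5 bp from the summit and fits the consensus on both strands.
Rela downstream, chr19:5648815-5649014, plus strand: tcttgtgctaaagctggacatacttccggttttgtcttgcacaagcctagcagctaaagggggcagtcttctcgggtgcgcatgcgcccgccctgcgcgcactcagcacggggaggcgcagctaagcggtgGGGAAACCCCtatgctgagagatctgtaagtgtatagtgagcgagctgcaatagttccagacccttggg
Capitals mark the kappaB run. The same 10 bases stood in peaks of Nfkbia and Nfkbiz, and in 0.598% of all peak intervals.

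Relb, the partner of p52, had the 5′ peak of highest signal and highest −log10 p among the members (chromosome 7, 19628235 to 19629674, 15.7 and 648). The strongest summit of this peak lay in intron 1, 760 bp downstream of the 5′ end. No kappaB match stood within 100 bp of that summit, but the interval of 1440 bp held 3 runs, 2 of them 20 and 92 bp upstream of the 5′ end. A peak in intron 4 (19618910 to 19619328) and one 39.4 kb downstream of the 5′ end (19589923 to 19590545) had the same signal, 14.2, and the same −log10 p, 58.6. The peak of highest signal in this locus (19603908 to 19604839, 29.2) had its summit 17 bp from the 5′ end of the neighbouring gene Clasrp.

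Nfkbia encodes IkB alpha, which NF-kB itself induces and which pulls the dimers back out of the nucleus. The gene is 3.24 kb long (chromosome 12, 55489410 to 55492647, minus strand), and the strongest summits of its 6 peaks all lay outside it, although the interval of the 5′ peak reaches into the gene. The 5′ peak (55491707 to 55492951) had a signal of 7.22, lowest among the highest 5′ peaks of the members, and a −log10 p of 349. Narrow peaks just beyond the 3′ end had signals of 4.53 and 3.65, and peaks 2.60, 6.57 and 13.5 kb upstream had 3.63, 11.3 and 17.5. The farthest peak thus had the highest signal of the locus, but its −log10 p was 79.5, well under that at the 5′ end. It carried the match GGGGCCTTCC 93.5 bp from its summit, and the weaker of the 3′ peaks carried GGGACACCCC 22.5 bp from its summit. The 5′ peak, 1245 bp wide, held 4 kappaB runs, a number that 35 of 34610 peaks (0.101%) reached or passed. Among the peaks at least 1000 bp wide 0.365% did. One of the 4 runs stands close to the start site in the RefSeq promoter. It is shown here without the transcribed part, with the match in capitals on the gene's own strand.
Nfkbia promoter (RefSeq, GRCm38.p6), chr12:55492648-55492897, minus strand: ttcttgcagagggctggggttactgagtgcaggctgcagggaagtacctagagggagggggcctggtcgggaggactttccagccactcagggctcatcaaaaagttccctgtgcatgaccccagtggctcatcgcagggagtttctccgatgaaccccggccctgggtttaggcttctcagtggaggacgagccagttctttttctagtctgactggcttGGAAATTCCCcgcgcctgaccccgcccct
A further run, GGGAATTCCC, lay in the peak 2.60 kb upstream, 112.5 bp from its summit.

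Nfkbie encodes IkB epsilon, another cytoplasmic inhibitor that prefers dimers with c-Rel and p65. Its locus on chromosome 17 (gene 45555703 to 45563169, plus strand) held 7 peaks, of which 2 belonged by position to the 5′ ends of Slc35b2, a nucleotide sugar transporter gene, and Hsp90ab1, a chaperone gene. The 5′ peak (45555276 to 45556129) had a signal of 7.59 and a kappaB match 21.5 bp from its summit. A peak in intron 1 (45557902 to 45558795, signal 7.47) had 2 matches within 100 bp of the summit, GGGGAACCCC and GGGGGTTTCC. Signals in the locus ranged from 6.40 to 13.4, the highest 25.99 kb downstream of the 5′ end and 8.43 kb from that of Hsp90ab1.

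Nfkbid and Nfkbiz encode the atypical nuclear inhibitors IkB NS and IkB zeta, which bind p50 on DNA and adjust the transcription of chosen targets. Nfkbid (chromosome 7, 30421732 to 30428746, plus strand) had 7 peaks in 47.0 kb, 2 of them at the 5′ ends of the signalling adaptor gene Hcst and of Aplp1. Its 5′ end carried a row of 3 separate peaks with summits 71 bp upstream, 614 bp downstream and 1.41 kb downstream, with signals of 6.02, 9.75 and 3.33. The peak of highest signal in the locus (30431714 to 30432163, 13.9) lay 10.3 kb downstream of the 5′ end, beyond the gene. An annotated transcript start of another gene, Gm30646, lay within 1 kb of its summit. The middle one of the row (30422084 to 30422534) had its summit 60 bp upstream of the start of the principal transcript. None of the 7 windows of 200 bp had a kappaB match, but the interval of that middle peak held 2 runs, 116.5 and 161.5 bp from its summit. Both are in a RefSeq promoter of the gene, shown here up to its start site with the matches in capitals.
Nfkbid promoter (RefSeq, GRCm38.p6), chr7:30422156-30422405, plus strand: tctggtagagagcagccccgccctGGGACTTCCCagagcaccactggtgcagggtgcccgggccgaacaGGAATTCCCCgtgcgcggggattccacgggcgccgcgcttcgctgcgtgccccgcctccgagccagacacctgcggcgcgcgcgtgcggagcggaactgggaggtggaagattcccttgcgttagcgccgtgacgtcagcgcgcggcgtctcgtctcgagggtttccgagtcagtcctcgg

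Nfkbiz (chromosome 16, 55811375 to 55838899, minus strand) had 9 peaks, as many as or more than 97.9% of genes. A cluster of 4 lay 16.7 to 19.3 kb downstream of the 5′ end, from intron 2 to exon 4. Its widest member (55821631 to 55822708), near an internal transcript start, had a −log10 p of 448, above the 193 of the 5′ peak (55838465 to 55839544). Their signals were 9.87 and 8.60. The other 3 peaks of the cluster had signals of 6.03, 4.13 and 2.70, the last being the lowest of the 60 peaks. A peak in intron 1, 1.56 kb downstream of the 5′ end, had 7.55. Upstream, peaks at 8.97, 14.2 and 19.8 kb had signals of 7.33, 13.8 and 11.9, and the middle one (55852796 to 55853371) had the match GGGAAACCCC 53.5 bp from its summit.

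Tnfaip3 encodes A20, a ubiquitin-editing enzyme that ends signalling to the IkB kinase. Its locus (chromosome 10, gene 19000910 to 19015657, minus strand) had 3 peaks in the thresholded list, all inside the gene. The peak at the 5′ end (19014391 to 19015847) had 4 summits, a signal of 9.63 and 2 kappaB runs. The others lay in introns 1 and 2, both near internal transcript starts, with signals of 3.18 and 4.21. The one in intron 2 (19009216 to 19009730) had the match GGGGAATTCC 70.5 bp from its summit. These 10 bases, read on either strand, also stood in the 5′ peaks of Nfkb2, Relb and Nfkbid, and in 0.384% of all peak intervals. In the longer pseudoreplicated list Tnfaip3 had 9 peaks, the additional 6 between 16.1 and 31.9 kb downstream of the 5′ end with signals from 3.32 to 7.09.

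kappaB matches were more frequent at the summits of these loci than in the list at large. Of the 60 peaks, 15 (25%, exact 95% interval 14.7 to 37.9%) had a match in 200 bp centred on the summit, against 8.24% of all 34610 peaks. They belonged to 8 of the 10 members, with Relb and Nfkbid as the exceptions. Of the 19 peaks within 1 kb of a protein-coding 5′ end, 7 had a match (36.8%, against 8.19% of such peaks in the list), and of the 41 other peaks 8 did (19.5%, against 8.26%). The 15 windows held 16 runs after overlapping matches were joined, 10 of them centred within 50 bp of the summit. Of the 16, 14 also fit the narrower consensus with A or T at the 6th base, which 21.7% of member peaks and 5.75% of all peaks held. The median signal was 9.63 in peaks with a match (range 3.65 to 21.5) and 9.12 in those without.

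Over whole peak intervals, a search added after seeing the data, 24 of 60 member peaks (40.0%) held a run, against 20.8% of all peaks. At 5′ ends the count was 10 of 10 members, while 32.7% of the 10376 protein-coding genes with a 5′ peak had a run in it. At least 2 runs stood in the 5′ peaks of 7 members and of 7.73% of genes. Member 5′ peaks were wide, with a median of 1283 bp per gene against 1037.5 bp over all such genes, and a wide interval has more room for a match. Among the 5712 genes with at least 1000 bp of 5′ peak, 39.7% had a run and 10.6% had 2 or more. In the RefSeq promoters, which run from 250 bases before to 50 after each start, 7 members were matched by symbol with 12 promoters, and 8 of these promoters, in 6 genes, had a match. The share over all 32851 promoters was 8.46%, and promoters of 1 gene can overlap. A match in sequence is a description and does not show that a protein was bound.

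**Figure D3:**
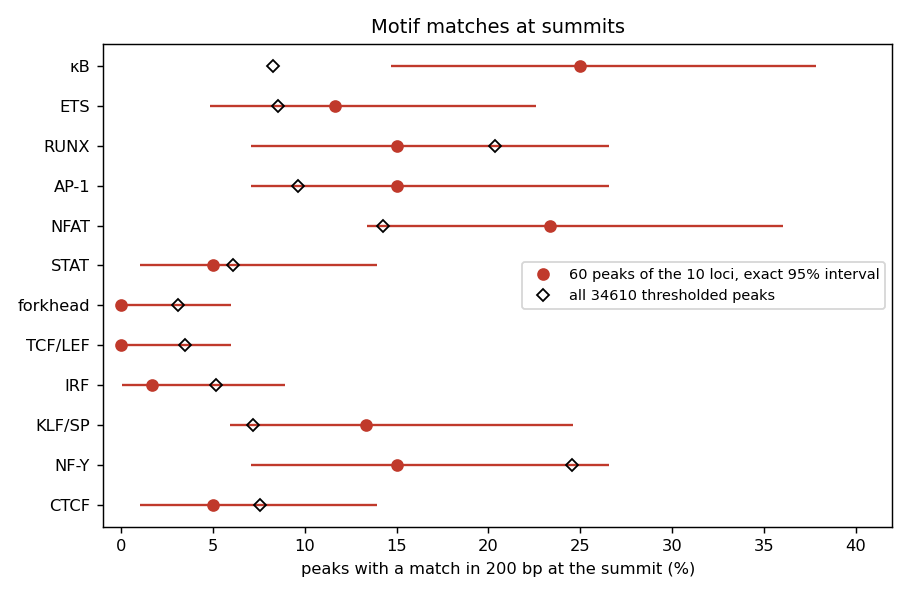
Share of peaks with a match in 200 bp centred on the summit (horizontal axis, percent) for 12 consensus motifs, in the 60 peaks of the 10 loci (red points with exact 95% intervals) and in all 34610 thresholded peaks (open diamonds). For kappaB the diamond, at 8.24%, lies below the interval around 25%. For the other motifs it lies inside the interval.

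For motifs of other factors the exact interval around the share of all 60 member peaks took in the share of the whole list. No interval was computed for peaks split by position. NFAT, a partner of NF-kB downstream of the T cell receptor (TGGAAA), was in 14 of 60 windows (23.3%, 13.4 to 36.0%), against 14.3% of all peaks, with 4 windows each at Nfkb1 and Nfkbiz. AP-1 (TGANTCA) and RUNX (TGTGGT) were in 9 each (15%), against 9.62% and 20.4%. Of the 19 windows within 1 kb of a 5′ end 3 had AP-1 (15.8%, against 3.19% of such peaks in the list). Of the 41 others 6 did (14.6%, against 12.1%). At 5′ ends ETS and NF-Y lay below the list, with 10.5% against 18.9% and 15.8% against 34.7%. ETS (CCGGAAG) was in 7 (11.7%, against 8.55%), STAT (TTCNNNGAA) in 3 (5%, against 6.08%), the CTCF consensus in 3 (5%, against 7.58%) and the IRF consensus in 1 (1.67%, against 5.14%). The CTCF matches stood in 1 window of Nfkbia and 2 of Nfkbiz. KLF/SP motifs (GGGGCGGGG) were in 8 windows (13.3%, against 7.17%). All 8 were among the 19 windows within 1 kb of a 5′ end (42.1%, against 18.2% of such peaks in the list), and 0 of the 41 others had one, against 2.85%. NF-Y (CCAAT) was in 9 (15%, against 24.6%). The forkhead motif TGTTTAC, of the kind bound by Foxo and Foxp factors, and the TCF/LEF motif CTTTGAT were in 0 of 60 windows, which allows a share of up to 5.96% (exact 95% interval). Their shares over all peaks, 3.08% and 3.46%, lie under that limit. Each motif was searched on both strands, and a kappaB match can overlap NFAT or KLF/SP letters.

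Signal and −log10 p placed these peaks differently. The median signal of the 60 peaks was 9.23 (quartiles 6.02 and 13.2), against 13.2 for the whole list (quartiles 8.98 and 18.2), and 15 of 60 reached the list median. Their median −log10 p was 139, against 115, and 34 of 60 reached the list median. At member 5′ ends the median signal was 9.11, against 16.7 for all peaks within 1 kb of a 5′ end, and the median −log10 p was 243, against 296. In the other 41 peaks the median signal was 7.69 and the median −log10 p was 98.0, against 12.1 and 87.8 for all peaks of that kind. The local background used for the enrichment value is not given in the sources used here, and its part in these values was not tested.

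**Figure D4:**
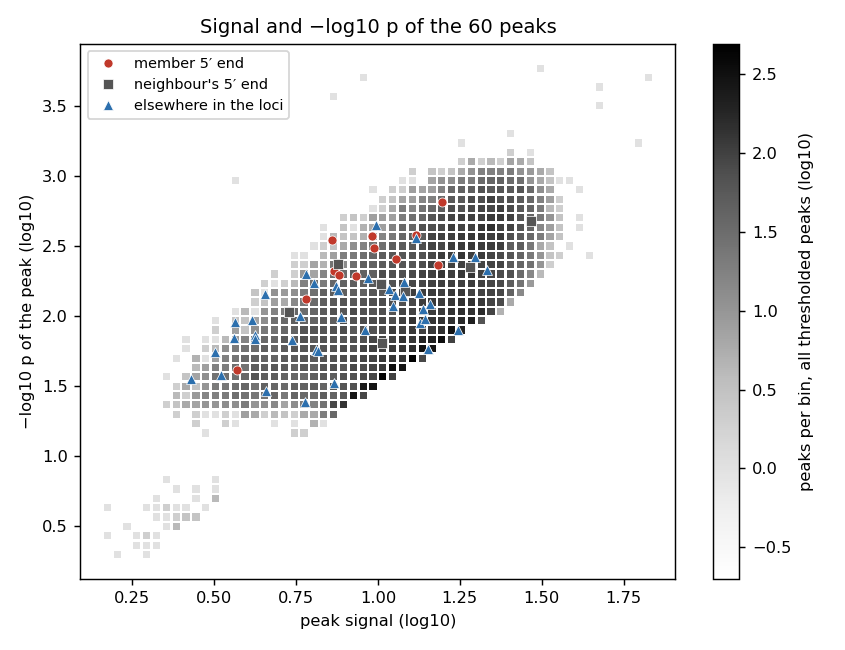
Deposited signal (horizontal, log10) and −log10 p (vertical, log10 of that value) of all 34610 thresholded peaks (grey, by number per bin) and of the 60 peaks of the 10 loci (red for member 5′ ends, grey squares for 5′ ends of neighbouring genes, blue for the rest). Many member peaks lie toward the left edge of the cloud, with low signal for their −log10 p.

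Base composition followed position. The 200 bp at the 12 member 5′ summits had a median GC content of 61.8% (range 43 to 75%) and a median ratio of observed to expected CpG of 0.812. The 41 peaks away from 5′ ends had 50% and 0.317. In the whole list the medians were 64% and 0.825 near 5′ ends, and 49.5% and 0.272 elsewhere. Nfkbiz was the member with the lowest GC content at a 5′ summit (43%), and Nfkb1 in intron 1 the one with the highest (75%).

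What the inputs of the IDR ranking were is not given in the sources used here. Because both libraries were pooled into 1 shared alignment, the values of these inputs do not show agreement between the libraries. For the member peaks the ratio of the −log10 p in the first input to that in the second had a median of 0.995. It ran from 0.568, in intron 15 of Nfkb1, to 1.81, in intron 3 of Nfkbiz. The −log10 IDR of the 60 peaks ran from 1.32, for a peak 18.2 kb downstream of the 5′ end of Nfkbid, to 3.96, for the 5′ peak of Relb. All 60 overlapped a peak of the pseudoreplicated list, as 99.9% of the thresholded list did. That list had 101 peaks in the loci, and 41 of them touched no thresholded peak. Their median signal was 3.80, against 8.55 for the whole pseudoreplicated list, and 2 of the 41 had a kappaB match at the summit, against 7.65% of that list.

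**Figure D5:**
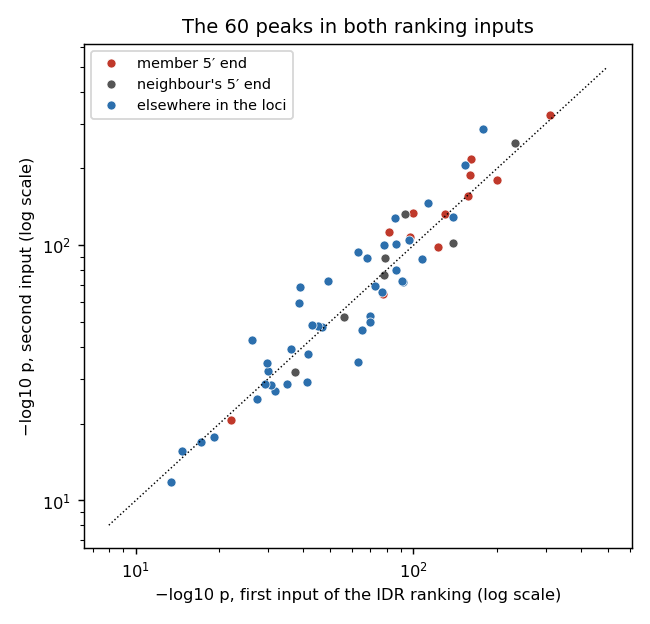
The −log10 p of each of the 60 peaks in the first (horizontal) and second (vertical) input of the IDR ranking, both on log scales, coloured by position, with the dotted line marking equal values. The 5′ peak of Relb stands highest, and no peak departs from the line by more than 1.81 times.

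Most other genes of the pathway also had a 5′ peak. Of a list of 42 kinases, adaptors, ubiquitin enzymes and further regulators, 40 had a peak within 1 kb of the 5′ end (95.2%, against 47.4% of protein-coding genes), and the median was 5 peaks per locus (range 1 to 22). Prkcq, the protein kinase C theta that links the T cell receptor to NF-kB, had 22 peaks, Tnip3, which encodes an A20-binding protein, 16, and Commd1, a regulator of RelA turnover, 10. At the low end, with ties taken in the order of the list, the TGF-beta activated kinase gene Map3k7 and the IkB kinase relative Tbk1 had 1 each and the IkB kinase alpha gene Chuk had 2, as did 7 other genes. The 2 genes without a 5′ peak were Bcl10, an adaptor of the receptor-proximal complex, which had 7 peaks in its locus, and Rnf11, an A20 partner, which had 2.

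The label of the cells was checked against marker genes. Of 8 T cell and regulatory T cell genes, 7 had a peak within 1 kb of the 5′ end, and Foxp3, whose outermost annotated start had none, had 5 peaks in its locus. Of 11 genes of other cells, among them Cd8a, Ms4a1, Lyz2, Ncr1 and Alb, 0 had such a peak, and 6 had no peak in the locus. Over all protein-coding genes, 47.4% had a peak within 1 kb of the 5′ end and 69.8% at least 1 peak in the locus. Klrb1c had 10 peaks and Cd79a 6 in their loci, the most of these 11.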

How the data were processed

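The authors deposited 3 peak lists in mm10 per the file listings of both libraries, which name 1 shared alignment. Peak caller: not given in the sources used here, like the aligner and any transposase shift. The deposited signal value (enrichment per peak, reference not stated) and the deposited −log10 p describe and rank peaks within a list. Of the deposited ranked list the score columns were also read, which hold the −log10 IDR and the −log10 p of both inputs. Lines sharing an interval were reduced to the summit of highest signal (68653 lines to 34610 peaks). Coordinates are 1-based, on GRCm38.p6 with GENCODE M21, the same assembly as mm10. Principal transcripts are the annotation's. Python 3.11.15, pandas 2.3.3, scipy 1.17.1 and pysam 0.24.0 were used, and functions were tested on simulated data. With 1 pooled sample no test was possible, and intervals cover counting error only. Members and lists were chosen with earlier results of these data known. All 10 members were named, with each one's peak nearest the 5′ end, its strongest peak and its summits with kappaB matches, and of the pathway list the 3 genes with most and with fewest peaks (ties by list order) and those without a 5′ peak. Other peaks, most of the sequences printed and the repeated 10-base runs were chosen after their values were seen. Some marker genes are counted but not named.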

Additional observations from a re-analysis of the deposited data

How the results depend on the processing

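No paired analysis was possible because the libraries were pooled before peak calling, and no replicate could be left out. The 10 of 10 members with a 5′ peak held with the pseudoreplicated list, with a −log10 p at or over the list median, with windows of 2500 bp and with starts of any transcript. The count was 9 with windows of 500 bp, which Relb missed, and 2 (Rela and Relb) with a signal at or over the list median, where 34.8% of all genes had one. The share of peaks with a kappaB match at the summit ranged from 15% (100 bp windows, against 5.17% of all peaks) to 33.3% (signal at or over the list median, against 8.07%), was 16.8% with the pseudoreplicated list (against 7.65%) and 40% over whole intervals. Counts of peaks moved by construction. The 10 loci held 101 peaks in the pseudoreplicated list, 114 with every summit counted, 95 with 50 kb and 29 with 0 kb on either side, 34 with a −log10 p and 15 with a signal at or over the list median. In the last 5 of these settings the median per locus was 9, 9, 2, 3 and 1, beside medians over all genes of 4, 3, 0, 1 and 1, and with 5 kb on either side it was 3.5, beside 1. With the signal threshold the members' median thus equalled that of all genes. The share of peaks away from 5′ ends was 52.9% with the −log10 p threshold, beside 54.96% of all peaks. The median signal was 5.99 with the pseudoreplicated list and 5.61 with every summit, beside 8.55 and 7.55 over all peaks. Leaving out peaks at neighbours' 5′ ends left 53 peaks. The depth of the libraries is unknown.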

Other observations

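Further 10-base runs stood in peaks of more than 1 member. GGGACTTTCC occurred at the 5′ peaks of Nfkb2 and Nfkbia (0.821% of all peak intervals), GGGACTTCCC at Nfkbid and Nfkbiz (0.647%) and GGGACACCCC at Nfkbia and Tnfaip3 (0.364%). Inside longer runs, GGGGATTTCC was shared by Rel and Tnfaip3, GGGGAACTCC by Rel and Nfkbie, GGGGGTTTCC by Nfkbia and Nfkbie, and GGGAATTCCC by Nfkb2 and Nfkbia. In all, 11 different matches of 10 bases, read on either strand, stood in peaks of at least 2 members. Of the 39 runs in member peaks, 24 lay in 5′ peaks, and 28 different sequences were found. The consensus leaves few letters free, so repeats among 39 runs can occur by chance. Whether 11 is more than in other peaks was not tested. The shares given for single runs are over all 34610 peak intervals, of which 7185 (20.8%) held any run.

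Several member peaks farther than 1 kb from any 5′ end sat within 1 kb of internal transcript starts of Nfkb1 (introns 15 and 18), Nfkbiz (intron 2) and Tnfaip3 (introns 1 and 2). Their signals ranged from 3.18 at Tnfaip3 to 16.9 at Nfkb1, and peak lists alone do not show whether these transcripts are made. The peak in intron 1 of Nfkbid (signal 3.33) lay 740 bp downstream of the start of the principal transcript.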
